A study of Mus musculus with 12 samples.

Results

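The genes followed here are 10 members of the GPR124-RECK receptor complex and its adaptors, measured in brain endothelial cells of 3 *Gpr124* genotypes. They were chosen by name, from a list of genes: *Adgra2* (the current symbol of *Gpr124*), *Reck*, *Lrp5*, *Lrp6*, *Tspan12*, *Dvl1*, *Dvl2*, *Dvl3*, *Dlg1* and *Dlg4*. These are 10 of the 49315 genes in the deposited count tables, and all 10 passed the filter on low counts that left 16637 genes for testing.

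The 12 RNA-seq libraries were made from CD31+ endothelial cells, negative for CD140b, CD45 and 7AAD, sorted from forebrains of mouse embryos at E15.5, with 1 embryo per library. The groups were 4 wild type (WT) embryos (JE1, JE6, KE8 and LE6), 4 Gpr124ΔC/ΔC embryos (JE3, JE4, LE2 and LE5) and 4 Gpr124-/- embryos (KE4, ME1, ME4 and ME5), none of them treated. Gpr124ΔC carries a V5 tag followed by a stop codon, placed by CRISPR just behind the last membrane-spanning segment, so that the C-terminal intracellular domain is not made. Gpr124-/- embryos carry 2 copies of a lacZ null allele. Both alleles are present in every cell of the embryo and not in endothelium alone, so the surrounding brain differs in genotype too. The comparison asks how the other components of the complex are expressed when the receptor is missing and when its intracellular domain is missing. The paper reports much less GPR124ΔC than full GPR124 protein, at the cell surface and in total. Gpr124ΔC/ΔC embryos thus differ from WT in the amount of receptor as well as in the domain, and these cannot be told apart here.

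GPR124 is an adhesion G protein-coupled receptor that acts together with RECK, a protein anchored to the outer face of the membrane by a lipid. RECK recognizes the ligands WNT7A and WNT7B and, through GPR124, delivers them to a Frizzled receptor and the co-receptors LRP5 or LRP6. In brain endothelium this signal drives vessel ingrowth and formation of the blood-brain barrier. Inside the cell, Dishevelled proteins bind activated Frizzled, and DLG proteins are PDZ scaffolds that can bind the C-terminal end of GPR124. TSPAN12 serves the parallel norrin pathway, which uses Frizzled4 and LRP5.

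The reference sequence of the 2 ends of the intracellular domain shows what the ΔC allele removes from the coding sequence of *Adgra2*. In transcript Adgra2-201 of GENCODE vM21, on the plus strand of chromosome 8 (GRCm38), the insertion follows base 27121246 in exon 19 of 19. It is followed by 262 of the 1336 codons, or 19.61%. The first sequence spans the insertion, with the bases retained in the protein in lower case and the first bases behind the insertion in capitals. The second is the end of the coding sequence, without the stop codon, and its capitals mark the last 4 codons, which encode the PDZ-binding end recognized by DLG proteins.
insertion site, chr8:27121187-27121306: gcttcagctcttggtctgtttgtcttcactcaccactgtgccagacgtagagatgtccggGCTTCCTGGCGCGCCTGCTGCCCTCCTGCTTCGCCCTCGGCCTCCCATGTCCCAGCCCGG
coding end, chr8:27121973-27122032: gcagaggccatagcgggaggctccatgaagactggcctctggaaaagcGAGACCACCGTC
Both stretches lie in the last exon, so the ΔC transcript keeps all of its splice junctions, and a gene-level count includes reads from in front of the insertion and from behind it.

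The number of reads counted on genes per library ran from 13877572 to 22551163. Summed TPM (a level corrected for gene length and library size) of 12 endothelial markers was 6290 to 7590 in WT, 5570 to 8130 in Gpr124ΔC/ΔC and 6740 to 8210 in Gpr124-/-, and none of the markers was at 0. Of these 12 markers, 4 rose and 2 fell in Gpr124-/- against WT at an adjusted p under 0.05 (edgeR), and of the 6 *Emcn* (log2 fold change 1.26) alone passed under every alternative tried. The others were *Cdh5* (0.74), *Robo4* (0.69), *Pecam1* (0.54), *Tek* (-0.73) and *Erg* (-0.41). Their part in the results that follow was not tested. The sums of blood cell markers were higher in Gpr124-/-. Summed TPM of 6 erythroid markers was 6650 to 11200 in WT, 5340 to 9640 in Gpr124ΔC/ΔC and 17600 to 52500 in Gpr124-/-, and that of 4 platelet markers was 230 to 453, 311 to 437 and 494 to 1400. In Gpr124-/- against WT 1 of 10 pericyte and smooth muscle markers rose (*Abcc9*, log2 fold change 2.66) and 1 fell (*Rgs5*, -1.47), 1 of 4 tested fibroblast markers fell (*Pdgfra*, -2.55), and neither of the 2 tested macrophage markers passed (edgeR). The summed TPM of these 3 lists overlapped between Gpr124-/- and WT. Of the calls in these lists, only that of *Abcc9* held under every alternative tried. Over the alternatives the log2 fold change of *Pdgfra* ran from -3.45 to -0.53 and that of *Rgs5* from -1.77 to -1.19. One RNA, *Gm23935*, took 12.459% of all TPM in WT embryo JE6 and 14.122% in Gpr124ΔC/ΔC embryo JE3, against 1.221% to 3.036% in the other embryos, and this lowers the TPM of every other gene in those libraries. In these bulk samples, fewer cells of a type and less RNA per cell cannot be told apart.

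*Adgra2* (ENSMUSG00000031486, chr8:27085583-27123436 of GRCm38, plus strand) checks the Gpr124-/- labels and cannot tell WT from Gpr124ΔC/ΔC by its level. Its level was 42.9, 51.1, 28.3 and 31.9 TPM in the WT embryos JE1, JE6, KE8 and LE6, 63.4, 40.8, 34.1 and 35.2 in the Gpr124ΔC/ΔC embryos JE3, JE4, LE2 and LE5, and 6.29, 4.03, 4.57 and 4.54 in the Gpr124-/- embryos KE4, ME1, ME4 and ME5. Every Gpr124-/- embryo was below every other embryo, and the ranges of WT and Gpr124ΔC/ΔC overlapped. The fold relative to WT in Gpr124-/- was 0.12, with a 95% interval from 0.0763 to 0.19 (log2 fold change -3.05, SE 0.30, adjusted p = 1.35e-05, from the quasi-likelihood test of edgeR, Benjamini-Hochberg adjusted over all tested genes). Against Gpr124ΔC/ΔC the log2 fold change was -3.17 (SE 0.30, adjusted p = 0.000152, edgeR). Between Gpr124ΔC/ΔC and WT it was 0.11, with a 95% interval from -0.49 to 0.71 (adjusted p = 0.945, edgeR). In Gpr124-/- 124 to 210 reads per library were still assigned to the gene. Which exons these reads came from was not analysed here. Exons of *Adgra2* share 73 of their 5775 bases with *Brf2* on the opposite strand. Reads in that stretch cannot be assigned with certainty, because the strand setting of the counting is not given in the sources used here.

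Across the 10 genes, 2 differed between Gpr124-/- and WT at an adjusted p under 0.05, *Adgra2* and *Dlg4*, and both also had an absolute log2 fold change above 1. *Adgra2* alone passed the adjusted p with limma on log2(TPM + 0.1), with a mean of at least 50 counts, which removes *Dlg4*, and with a term for the letter that opens the embryo label, a fit described with *Dlg4*. It alone passed both thresholds in these settings, with every limma setting and without ME1. Over all tested genes 19.8% passed the first threshold and 9.88% passed both. Between Gpr124ΔC/ΔC and WT none of the 10 passed and none had an unadjusted p under 0.05 in that fit (edgeR), and DESeq2 and limma called none either, beside 4.09% of all tested genes under the first threshold and 1.92% under both. Between Gpr124-/- and Gpr124ΔC/ΔC *Adgra2* was the only one that passed, beside 8.82% and 4.6% of all tested genes. In these comparisons the absolute log2 fold change had a median of 0.26, 0.13 and 0.24 over the 10 genes and of 0.27, 0.17 and 0.24 over all tested genes. The 3 comparisons share libraries, each genotype entering 2 of them.

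**Figure D1:**
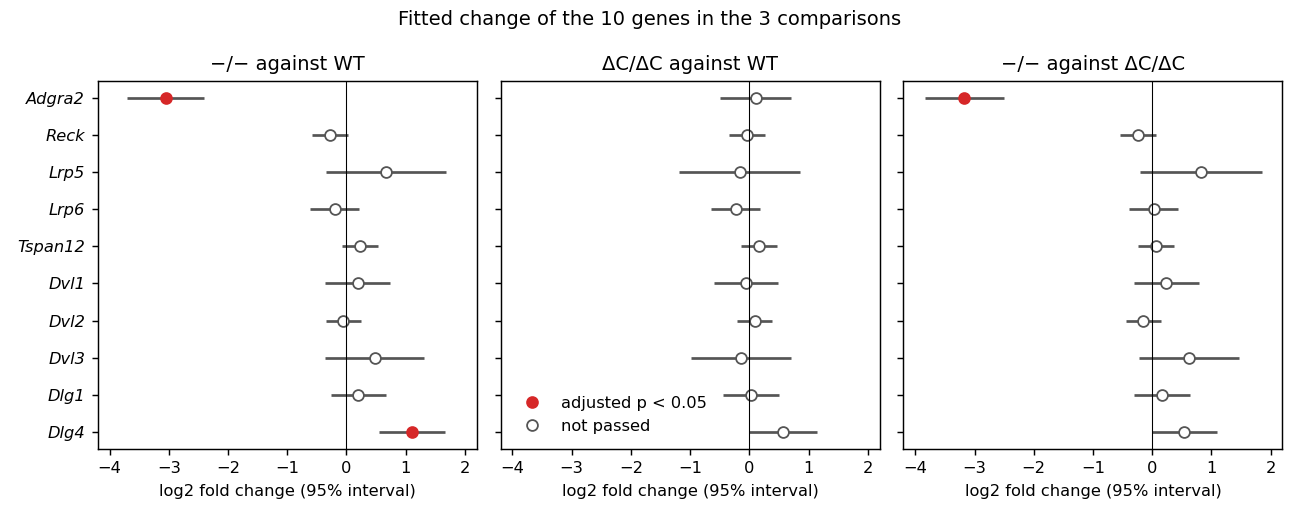
Log2 fold change (x axis) of each of the 10 genes (y axis) with its 95% interval, in Gpr124-/- against WT, Gpr124ΔC/ΔC against WT and Gpr124-/- against Gpr124ΔC/ΔC. Filled red points, at an adjusted p under 0.05 (edgeR), are *Adgra2* at -3.05 and *Dlg4* at 1.11 on the left and *Adgra2* at -3.17 on the right, and no point is filled in the middle.

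In WT the levels per deposited gene length fell in a clear order at both ends. For some genes that length is well above the transcript with the longest coding sequence (8963 against 4663 bases for *Dlg1*, 9738 against 5161 for *Lrp5*). For *Reck* it is close to it (4779 against 4433). The order by transcript length was not computed, so the places of *Reck* and *Lrp5* beside the genes between them are given for the deposited lengths alone. *Tspan12* was highest at 91.2 ± 9.78 TPM (SD, n = 4), above 87.8% of tested genes, followed by *Adgra2* at 38.6 ± 10.4 and *Reck* at 22.2 ± 2.56, and these ranges did not overlap. *Lrp6* (13.9 ± 2.39), *Dlg1* (12.3 ± 2.6), *Dvl3* (11.9 ± 4.87), *Dvl2* (10.3 ± 1.3) and *Dvl1* (9.99 ± 1.76) came next, and neighbours among these overlapped. *Lrp5* lay below all of these at 4.2 ± 2.21, and *Dlg4* was lowest at 0.749 ± 0.106, above 8.5% of tested genes. In Gpr124-/- *Adgra2* dropped in this order to the position between *Lrp5* (6.98 ± 3.07) and *Dlg4* (1.67 ± 0.386), while *Tspan12* (110 ± 25.6) and *Reck* (18.8 ± 1.03) had the highest means. In Gpr124-/- only *Tspan12* at the top and *Dlg4* at the bottom were free of overlap with their neighbour, and *Reck* overlapped with *Dvl3* and *Lrp5* with *Adgra2*.

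**Figure D2:**
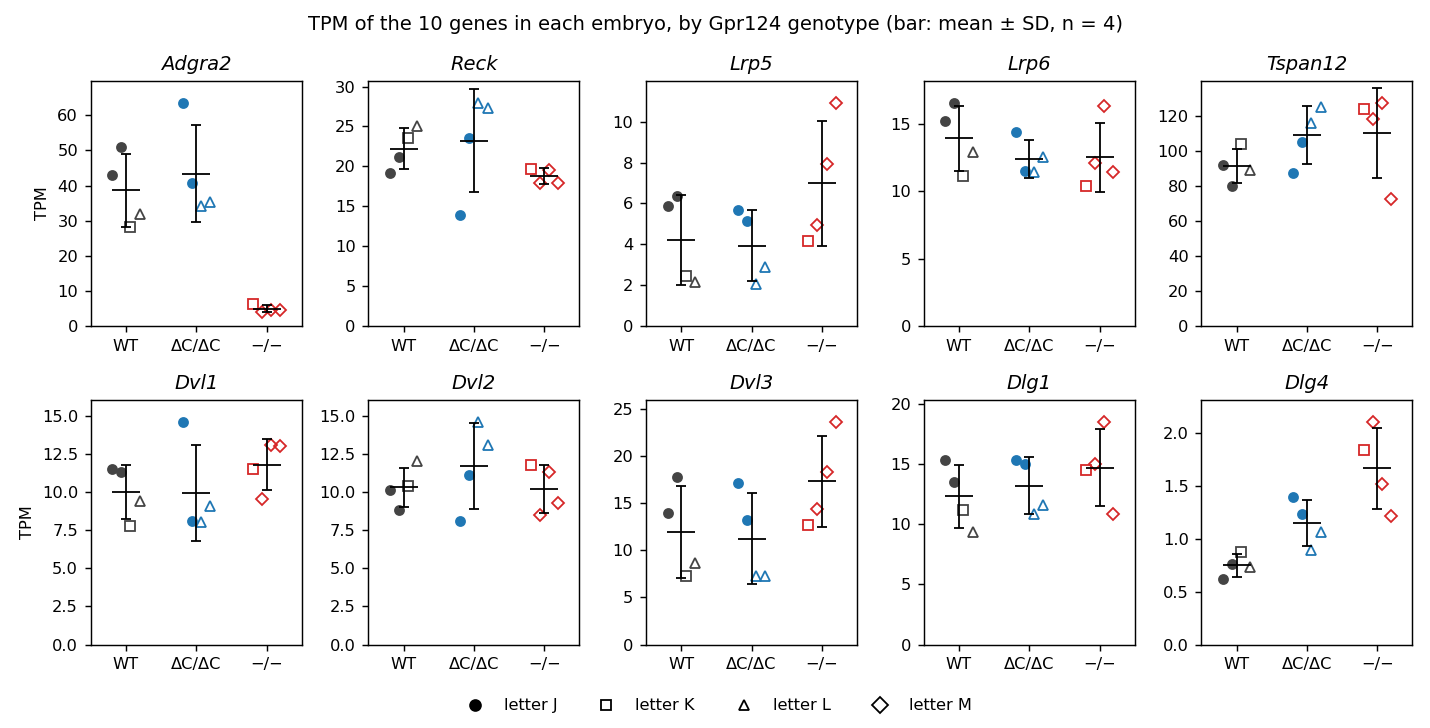
TPM (y axis, from 0, on its own scale in each panel) of the 10 genes in every embryo, by genotype (x axis), with black bars for the mean ± SD of 4 embryos and marker shapes for the letter that opens the embryo label. *Adgra2* in Gpr124-/- (4.03 to 6.29 TPM) stands apart from the other genotypes, *Dlg4* lies lowest in WT (0.618 to 0.877 TPM), and the filled points of letter J form an upper group in WT and Gpr124ΔC/ΔC for *Lrp5* and *Dvl3*.

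*Reck* (ENSMUSG00000028476, chr4:43875530-43944806, plus strand) encodes the partner that binds WNT7. Its TPM was 19.2, 21.2, 23.5 and 25 in WT, 13.9, 23.5, 27.9 and 27.3 in Gpr124ΔC/ΔC and 19.7, 17.9, 19.6 and 17.9 in Gpr124-/-, in the embryo order given for *Adgra2*. The Gpr124-/- values lay close together and overlapped with WT through JE1, and the lowest value of all was that of JE3. In CPM (counts scaled to library size) Gpr124-/- was at 30.6 to 31.4 and WT at 32.4 to 40.8 without overlap, as for 22.9% of all tested genes in this comparison. The log2 fold change was -0.28 in Gpr124-/- against WT (95% interval -0.59 to 0.02, adjusted p = 0.201, edgeR) and -0.04 in Gpr124ΔC/ΔC against WT (-0.35 to 0.27, adjusted p = 0.963, edgeR). Between the mutants it was -0.24 (adjusted p = 0.339), and without JE3 it was -0.38 (adjusted p = 0.0429, edgeR), so that this call depended on 1 embryo.

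Because TPM is per length, *Reck* and *Adgra2* could be set side by side within an embryo. The ratio of *Reck* to *Adgra2* was 0.414 to 0.829 in WT and 0.219 to 0.82 in Gpr124ΔC/ΔC, so that *Adgra2* exceeded *Reck* in all 8 of these embryos. In Gpr124-/- the ratio was 3.13 to 4.44, which moves with the targeted gene and was not tested. The log2 ratio in Gpr124ΔC/ΔC differed from WT by -0.147 (exact two-sided permutation p = 0.771, n = 4 each, Benjamini-Hochberg adjusted 0.823 over 16 comparisons of ratios and shares).

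The co-receptor genes differed in how much they varied. *Lrp6* (ENSMUSG00000030201, chr6:134446476-134566965, minus strand) was at 15.2, 16.5, 11.1 and 12.9 TPM in WT, 14.4, 11.5, 11.4 and 12.5 in Gpr124ΔC/ΔC and 10.4, 12.1, 16.3 and 11.4 in Gpr124-/-. *Lrp5* (ENSMUSG00000024913, chr19:3584828-3686564, minus strand) was at 5.88, 6.34, 2.46 and 2.14 TPM in WT, 5.66, 5.15, 2.04 and 2.9 in Gpr124ΔC/ΔC and 4.16, 4.95, 7.91 and 10.9 in Gpr124-/-. The genotype ranges of both genes overlapped, and within WT and within Gpr124ΔC/ΔC *Lrp5* split into a high and a low pair of embryos. For *Lrp6* the log2 fold change was -0.20 in Gpr124-/- (95% interval -0.62 to 0.21, adjusted p = 0.525, edgeR) and -0.23 in Gpr124ΔC/ΔC (-0.65 to 0.18, adjusted p = 0.706). For *Lrp5* it was 0.67 in Gpr124-/- (-0.35 to 1.68, adjusted p = 0.383, edgeR), -0.16 in Gpr124ΔC/ΔC (-1.18 to 0.86, adjusted p = 0.958) and 0.83 between the mutants (-0.2 to 1.85, adjusted p = 0.326). With each embryo left out in turn, the log2 fold change of *Lrp5* in Gpr124-/- against WT ran from 0.35 to 0.99. Its interval is wide enough to hold a log2 fold change of 1 as well as 0.

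Within embryos, *Lrp5* was lower than *Lrp6* in TPM in all 12. These TPM rest on deposited gene lengths of 9738 bases for *Lrp5* and 13672 for *Lrp6*. Their transcripts with the longest coding sequence have 5161 and 9368 bases, so that in ME5 which gene is higher depends on the length used. The ratio of *Lrp5* to *Lrp6* was 0.166 to 0.387 in WT, 0.179 to 0.448 in Gpr124ΔC/ΔC and 0.399 to 0.951 in Gpr124-/-. The Gpr124-/- and WT ranges did not overlap, and the highest ratio was that of ME5. The log2 ratio was higher in Gpr124-/- than in WT by 0.948 (exact two-sided permutation p = 0.0286, the smallest that 4 embryos against 4 allow), but the adjusted value over the 16 comparisons was 0.152. In Gpr124ΔC/ΔC against WT the difference was 0.105 (exact permutation p = 0.686, adjusted 0.816), and between the mutants it was 0.843 (exact permutation p = 0.114, adjusted 0.392). Letter M of the labels holds Gpr124-/- embryos alone, so that for 3 of the 4 embryos letter and genotype cannot be told apart.

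*Tspan12* (ENSMUSG00000029669, chr6:21771395-21852515, minus strand), which encodes the tetraspanin co-activator of the norrin receptor, was at 92.1, 80.1, 104 and 88.8 TPM in WT, 87.3, 105, 116 and 125 in Gpr124ΔC/ΔC and 124, 118, 127 and 72.3 in Gpr124-/-. Of the Gpr124-/- embryos 3 were above all WT embryos, and ME5 was below all of them. The log2 fold change was 0.23 in Gpr124-/- (95% interval -0.07 to 0.54, adjusted p = 0.309, edgeR), 0.17 in Gpr124ΔC/ΔC (-0.14 to 0.47, adjusted p = 0.72) and 0.06 between the mutants (-0.24 to 0.37, adjusted p = 0.83). Without ME5 the log2 fold change of Gpr124-/- against WT was 0.39 (adjusted p = 0.00564, edgeR), so that *Tspan12* passed the test only when that embryo was left out.

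The 3 Dishevelled genes encode the cytoplasmic relay of Frizzled. *Dvl1* (ENSMUSG00000029071, chr4:155847402-155859303, plus strand) was at 7.75 to 11.5 TPM in WT, 8.01 to 14.6 in Gpr124ΔC/ΔC and 9.53 to 13.1 in Gpr124-/-. *Dvl2* (ENSMUSG00000020888, chr11:70000595-70012301, plus strand) was at 8.83 to 12, 8.08 to 14.6 and 8.48 to 11.8 TPM. Both genes overlapped between all genotypes. *Dvl3* (ENSMUSG00000003233, chr16:20516982-20532520, plus strand) was at 13.9, 17.8, 7.26 and 8.6 TPM in WT, 17.1, 13.2, 7.3 and 7.21 in Gpr124ΔC/ΔC and 12.7, 14.4, 18.3 and 23.6 in Gpr124-/-. As for *Lrp5*, the WT and Gpr124ΔC/ΔC embryos formed a high and a low pair, and the Gpr124-/- range began above the low pairs. Log2 fold changes against WT were 0.19, -0.06 and 0.48 for *Dvl1*, *Dvl2* and *Dvl3* in Gpr124-/- (95% intervals -0.36 to 0.73, -0.35 to 0.24 and -0.36 to 1.31, adjusted p = 0.675, 0.821 and 0.457, edgeR), and that of *Dvl3* ran from 0.27 to 0.8 with each embryo left out in turn. In Gpr124ΔC/ΔC they were -0.05, 0.09 and -0.14 (-0.6 to 0.49, -0.2 to 0.38 and -0.98 to 0.7, adjusted p = 0.976, 0.889 and 0.953, edgeR). Exons of *Dvl2* share 1240 of their 6298 bases with *Acadvl* on the opposite strand and with *Mir324*, and since the strand setting of the counting is not given in the sources used here, reads of *Dvl2* and *Acadvl* in that stretch cannot be assigned with certainty.

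The composition of the Dishevelled pool was compared as the share of each gene in the summed TPM of the 3. In WT *Dvl1* made up 31.0 ± 1.09% (SD, n = 4), *Dvl2* 33.1 ± 8.7% and *Dvl3* 35.8 ± 8.92%. In Gpr124ΔC/ΔC the shares were 29.8 ± 5.27%, 37.0 ± 12.7% and 33.2 ± 10.1%, and in Gpr124-/- 30.1 ± 1.56%, 26.4 ± 5.13% and 43.5 ± 6.62%. The ranges of all 3 shares overlapped between genotypes. Among WT and Gpr124ΔC/ΔC embryos the shares also split by the letter that opens the embryo label. *Dvl2* was at 20.3% to 34.3% in letter J and at 40.0% to 48.8% in letters K and L, and *Dvl3* at 39.3% to 46.9% and 24.4% to 28.6%. The mutants share no letter. The widest difference in means, that of *Dvl2* between the mutants, was -10.6 percentage points (exact two-sided permutation p = 0.171, adjusted 0.392) and ran from -16.2 to -6.69 with each embryo left out in turn, and the exact p over the 9 comparisons of shares ran from 0.171 to 0.971.

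**Figure D3:**
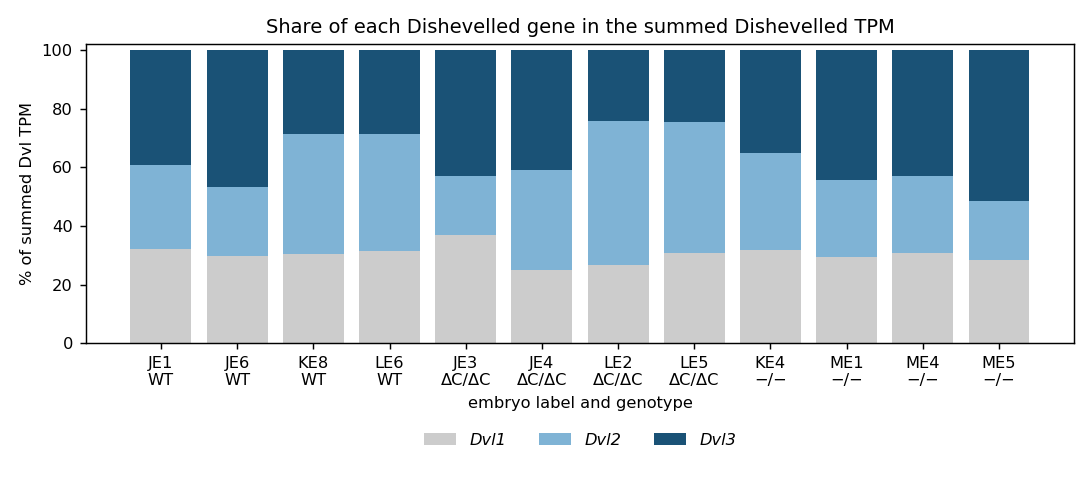
Share of *Dvl1*, *Dvl2* and *Dvl3* in their summed TPM (y axis, percent, stacked) in each embryo (x axis, with its genotype). *Dvl1* holds 24.9% to 36.8% throughout, while *Dvl3* runs from 24.4% in LE2 to 51.4% in ME5, and *Dvl2* from 20.2% in ME5 to 48.8% in LE2.

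The DLG scaffolds differed in level. *Dlg1* (ENSMUSG00000022770, chr16:31663443-31873356, plus strand) was at 15.3, 13.5, 11.2 and 9.35 TPM in WT, 15.3, 15.0, 10.8 and 11.6 in Gpr124ΔC/ΔC and 14.5, 15.0, 18.5 and 10.8 in Gpr124-/-. The genotypes overlapped, with a log2 fold change of 0.20 in Gpr124-/- (95% interval -0.27 to 0.67, adjusted p = 0.603, edgeR) and 0.03 in Gpr124ΔC/ΔC (-0.44 to 0.5, adjusted p = 0.988).

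*Dlg4* (ENSMUSG00000020886, chr11:70017085-70045532, plus strand), which encodes PSD-95 and is best known as a scaffold of neuronal synapses, was at 0.618, 0.767, 0.877 and 0.732 TPM in WT, 1.4, 1.24, 0.897 and 1.07 in Gpr124ΔC/ΔC and 1.84, 2.11, 1.52 and 1.22 in Gpr124-/-. In TPM every mutant embryo of either kind was above every WT embryo, and the 2 mutants overlapped at JE3, JE4 and ME5. In CPM LE2, at 1.41, lay below JE6 at 1.48 and KE8 at 1.5, so that Gpr124ΔC/ΔC and WT overlapped on that scale, while Gpr124-/- and WT did not. The TPM ranges of Gpr124-/- and WT did not overlap for 20.3% of all tested genes, those of Gpr124ΔC/ΔC and WT for 8.85% and those of the mutants for 11.5%. *Dlg4* rose in Gpr124-/- with a fold of 2.16 (95% interval 1.47 to 3.19, log2 fold change 1.11, SE 0.26, adjusted p = 0.00812, edgeR). In Gpr124ΔC/ΔC the log2 fold change was 0.57 (SE 0.26), with an adjusted p of 0.346 (edgeR), and between the mutants it was 0.54 (SE 0.25, adjusted p = 0.228). In TPM, exact two-sided permutation of the embryos gave an unadjusted p of 0.0286, the smallest that 4 embryos against 4 allow, for each mutant against WT. These values rest on 20 to 56 reads per library. Without ME1 the log2 fold change in Gpr124-/- was 0.95. With the letter that opens the embryo label as a term it was 1.02, with an adjusted p of 0.397 (edgeR). In that fit Gpr124-/- against WT rests on KE4 against KE8 alone, 1 embryo each, because the other 3 Gpr124-/- embryos have a letter that no WT embryo shares, and the 2 are assumed to vary like the other embryos. This holds for every Gpr124-/- value given below with that term.

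Markers of neurons and neural progenitors were measured beside *Dlg4*. Summed TPM of 7 neuronal markers was 57.3 to 114 in WT, 71.1 to 118 in Gpr124ΔC/ΔC and 111 to 173 in Gpr124-/-, and 2 of the 7 rose in Gpr124-/- against WT, with the other 5 not passing the test. The 2 were *Stmn2*, a regulator of axonal microtubules, from 14.2 to 34.4 mean TPM (log2 fold change 1.25, adjusted p = 0.00109, edgeR), and *Gap43*, a growth-cone protein, from 8.99 to 54.9 (2.58, adjusted p = 1.04e-05). With the label letter as a term the log2 fold change of *Stmn2* was 0.54 and did not pass (adjusted p = 0.454, edgeR). Summed TPM of 6 neural progenitor markers was 113 to 136 in WT, 111 to 119 in Gpr124ΔC/ΔC and 137 to 165 in Gpr124-/-, and of these *Slc1a3* alone passed in Gpr124-/-, at -2.15 (adjusted p = 4.49e-05, edgeR). The same gene alone of the 6 passed in Gpr124ΔC/ΔC against WT, at -1.95 (adjusted p = 0.000536, edgeR). The part of these markers in the *Dlg4* values was not tested. *Dlg1* exceeded *Dlg4* by 12.8 to 24.7 times in WT, 10.8 to 12.1 times in Gpr124ΔC/ΔC and 7.12 to 12.1 times in Gpr124-/-, so that neither mutant overlapped with WT. The log2 ratio differed from WT by -0.891 in Gpr124-/- and by -0.513 in Gpr124ΔC/ΔC (exact two-sided permutation p = 0.0286 for each, adjusted 0.152 over the 16 comparisons). Without JE1, the WT embryo with the highest ratio, the difference in Gpr124ΔC/ΔC was -0.313.

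Several of the 10 genes split within genotypes by the letter that opens the embryo label, whose meaning is not given in the sources used here. Letter J holds 2 WT and 2 Gpr124ΔC/ΔC embryos, K 1 WT and 1 Gpr124-/-, L 1 WT and 2 Gpr124ΔC/ΔC, and M 3 Gpr124-/-. Among WT and Gpr124ΔC/ΔC embryos, the 4 of letter J were above the 4 of letters K and L without overlap for *Lrp5* (means 5.76 and 2.39 TPM, 2.41 times), *Dvl3* (2.04 times), *Adgra2* (49.6 and 32.4, 1.53 times) and *Dlg1* (14.8 and 10.7, 1.38 times). Over all tested genes 7.92% separated in this direction and 18.7% in either, beside 4 of the 10 genes here. The ratio of J to K and L was 0.75 for *Reck* and 0.76 for *Dvl2*, whose ranges overlapped. The highest *Gm23935* shares, those of JE6 and JE3, were also both in letter J.

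Values within single letters rest on 1 to 2 embryos a side and were not tested one by one. Between Gpr124ΔC/ΔC and WT, the log2 ratio of mean TPM for *Adgra2* was 0.149 in J and 0.121 in L, for *Lrp5* -0.177 and 0.209, for *Dvl3* -0.065 and -0.245, and for *Dlg4* 0.933 and 0.428. Between Gpr124-/- and WT in letter K, with KE4 against KE8, it was -2.17 for *Adgra2*, -0.256 for *Reck*, 0.757 for *Lrp5*, 0.813 for *Dvl3* and 1.07 for *Dlg4*. The fit with the letter as a term compares the same pair of embryos on counts and is no second measurement, and it gave -2.22 for *Adgra2* (adjusted p = 0.00124, edgeR). In this pair the direction for *Adgra2* and *Dlg4* was that of the whole series, and the *Adgra2* difference was smaller, with KE4 the highest of the Gpr124-/- embryos at 6.29 TPM.

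**Figure D4:**
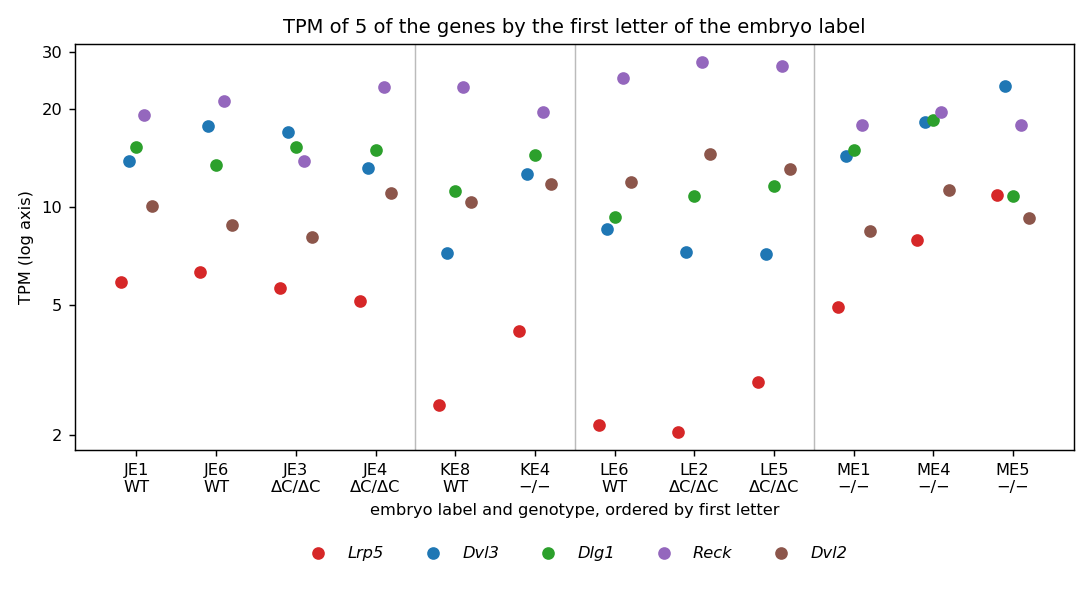
TPM (y axis, log scale) of *Lrp5*, *Dvl3*, *Dlg1*, *Reck* and *Dvl2* in each embryo (x axis), ordered by the first letter of its label and then by genotype, with grey lines between letters. *Lrp5* is at 5.15 to 6.34 TPM in the 4 embryos of letter J and at 2.04 to 2.9 in the WT and Gpr124ΔC/ΔC embryos of letters K and L, and *Dvl3* at 13.2 to 17.8 and 7.21 to 8.6.

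Around the 10 genes, 70 other genes of the pathway were counted in 8 lists, of which 62 could be tested. In Gpr124-/- against WT 9 rose and 11 fell, together 32.3% of those tested beside 19.8% of all tested genes. In Gpr124ΔC/ΔC against WT 3 rose and 5 fell, 12.9% beside 4.09%, and between the mutants 3 rose and 2 fell in Gpr124-/-, 8.06% beside 8.82%. This last count of 5 was 8 without KE4 and 3 without JE4, LE5, ME1 or ME5. Absolute log2 fold changes of these genes had medians of 0.46, 0.19 and 0.31, beside 0.27, 0.17 and 0.24 over all tested genes. The lists were chosen with earlier results of these data known. With the label letter as a term, where KE4 stands against KE8, 10 of them passed in Gpr124-/- against WT, beside 6.16% of all tested genes, and 11 in Gpr124ΔC/ΔC against WT, beside 5.9% (edgeR). Of the genes named below, *Fzd4*, *Fzd1*, *Ccdc88c*, *Nkd2*, *Itsn1*, *Adam10* and *Mmp9* were among those that did not pass in Gpr124-/- with that term (adjusted p from 0.0651 to 0.4, edgeR), with log2 fold changes of 0.64, -0.69, 0.59, -1.23, 0.38, -0.93 and -3.81 in this order. *Lgr4*, *Znrf3* and 3 scaffold genes, given with their values below, did not pass either.

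Among the Frizzled receptors, which bind WNT directly, 2 of 10 rose, 2 fell and 6 did not pass in Gpr124-/- (median log2 fold change 0.22). *Fzd6* had mean TPM of 205 in WT, 158 in Gpr124ΔC/ΔC and 89.0 in Gpr124-/- and fell by 1.26 on the log2 scale in the latter (adjusted p = 1.36e-05, edgeR). *Fzd4*, the norrin receptor, rose from 50.3 to 80.1 and 96.4 mean TPM, with log2 fold changes of 0.58 in Gpr124ΔC/ΔC (adjusted p = 0.038, edgeR) and 0.90 in Gpr124-/- (adjusted p = 0.0006). It was the only Frizzled gene that passed in Gpr124ΔC/ΔC, and that call ended when JE1, JE6, LE6, LE2, LE5, KE4, ME1 or ME4 was left out (adjusted p from 0.0501 to 0.13, edgeR), in the fit of the 2 genotypes alone (adjusted p = 0.0704, edgeR) and with limma on TPM (adjusted p of 0.137, 0.141 and 0.234 in 3 of its settings). *Fzd10* rose from 3.73 to 24.1 mean TPM in Gpr124-/- (log2 fold change 2.63, adjusted p = 0.00273, edgeR). *Fzd1*, added after its values were seen, fell by 0.85 in Gpr124-/- (adjusted p = 0.0114). In Gpr124-/- *Fzd4* and *Fzd6*, the 2 most abundant Frizzled genes, thus changed in opposite directions. The 3 ligand genes *Wnt7a*, *Wnt7b* and *Ndp* did not pass in either mutant.

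Of the surface regulators of LRP and Frizzled, 9 of 14 were tested, and in Gpr124-/- 1 rose and 2 fell (median -0.03). *Dkk3*, of the Dickkopf family, fell in both mutants, from 15.4 mean TPM in WT to 4.46 in Gpr124ΔC/ΔC and 2.84 in Gpr124-/- (log2 fold changes -1.88 and -2.47, adjusted p = 0.000165 and 2.87e-06, edgeR). *Znrf3*, a ubiquitin ligase that removes Frizzled and LRP6 from the surface, fell by 1.11 in Gpr124-/- (adjusted p = 0.0126). *Lgr4*, a receptor for R-spondins, rose by 3.07 on the log2 scale from a mean of 0.189 TPM to 1.62 (adjusted p = 0.00535, edgeR). With the label letter as a term these log2 fold changes were -0.58 for *Znrf3* and 1.07 for *Lgr4* and no longer passed (adjusted p = 0.536 and 0.571, edgeR). That of *Lgr4* ran from 2.75 to 4.22 with each embryo left out in turn.

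Of the other PDZ scaffolds of the DLG and MAGI families, 2 of 6 rose, 1 fell and 3 did not pass in Gpr124-/- (median 0.22), and none passed in Gpr124ΔC/ΔC. *Dlg5* rose from 7.09 to 11.5 mean TPM (log2 fold change 0.65, adjusted p = 0.00984, edgeR), and *Dlg2* from 0.43 to 1.21 (1.45, adjusted p = 0.0228). *Magi3* fell from 19.4 to 13.4 mean TPM (-0.58, adjusted p = 0.028, edgeR). Leaving out single embryos ended the call of *Dlg2* (JE1, KE8, ME1 or ME4, adjusted p from 0.0581 to 0.0745) and of *Magi3* (JE1, JE6, KE8, ME1, ME4 or ME5, adjusted p from 0.0582 to 0.0831, edgeR). With the letter as a term the log2 fold changes of *Dlg5*, *Dlg2* and *Magi3* were 0.63, 1.1 and -0.16 and none passed (adjusted p = 0.29, 0.443 and 0.856, edgeR). With limma without a filter *Dlg2* and *Magi3* did not pass either (adjusted p = 0.0984 and 0.0684).

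Among 15 kinases and destruction complex genes, *Axin2*, a scaffold of that complex and itself a WNT target, fell in both mutants and the other 14 did not pass in either. Its mean TPM was 6.86 in WT, 3.44 in Gpr124ΔC/ΔC and 2.4 in Gpr124-/- (log2 fold changes -1.07 and -1.56, adjusted p = 0.00104 and 9.96e-06, edgeR). Of 9 tested Dishevelled partners, 1 rose and 3 fell in each mutant. *Nkd1* and *Nkd2*, Dishevelled-binding inhibitors of WNT signaling, fell by 3.77 and 1.07 in Gpr124-/- and by 2.49 and 1.35 in Gpr124ΔC/ΔC (adjusted p = 2.79e-05, 0.00394, 0.00228 and 0.00363, edgeR). *Ccdc88c*, which encodes the Dishevelled-binding protein Daple, rose by 0.93 and 0.73 (adjusted p = 0.000721 and 0.0143, edgeR), and *Daam1*, a formin, fell by 0.50 and 0.51 (adjusted p = 0.00675 and 0.0206). In Gpr124ΔC/ΔC the call of *Ccdc88c* ended without JE1 (adjusted p = 0.0583, edgeR), and with limma without a filter (adjusted p = 0.0511). That of *Daam1* ended without KE8, LE6, JE3 or JE4 (adjusted p from 0.0533 to 0.0775, edgeR) and with limma (adjusted p from 0.0707 to 0.253 over 4 settings). In Gpr124-/- the call of *Daam1* ended with limma on log2(TPM + 0.1) and without a filter (adjusted p = 0.0508 and 0.0676).

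Of 6 tested GPR124 paralogs and reported intracellular partners, *Itsn1*, an endocytic scaffold, rose by 0.50 in Gpr124-/- (adjusted p = 0.00604, edgeR), from 3.88 to 5.65 mean TPM, and none passed in Gpr124ΔC/ΔC. With limma on TPM *Itsn1* did not pass in 3 settings (adjusted p from 0.0518 to 0.108). Genes of the 4 proteases that RECK is known to inhibit all passed in Gpr124-/-, 2 higher and 2 lower. *Mmp2* rose from 18.6 mean TPM in WT to 104 in Gpr124ΔC/ΔC and 219 in Gpr124-/- (log2 fold changes 2.40 and 3.52, adjusted p = 5.38e-06 and 7.8e-08, edgeR). *Mmp14* rose by 1.09 and *Adam10* fell by 0.83 in Gpr124-/- (adjusted p = 7.67e-05 and 0.00967, edgeR), and with limma on TPM *Adam10* did not pass in 3 settings (adjusted p from 0.0525 to 0.101). *Mmp9*, added after its values were seen, fell by 3.0 in Gpr124-/- (adjusted p = 0.0177, edgeR) and lost this call without KE8, ME4 or ME5 (adjusted p from 0.0536 to 0.058, edgeR) and in 2 settings of limma (adjusted p = 0.0615 and 0.077). Beside them, the log2 fold changes of *Reck* itself were -0.28 in Gpr124-/- and -0.04 in Gpr124ΔC/ΔC, neither of which passed.

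**Figure D5:**
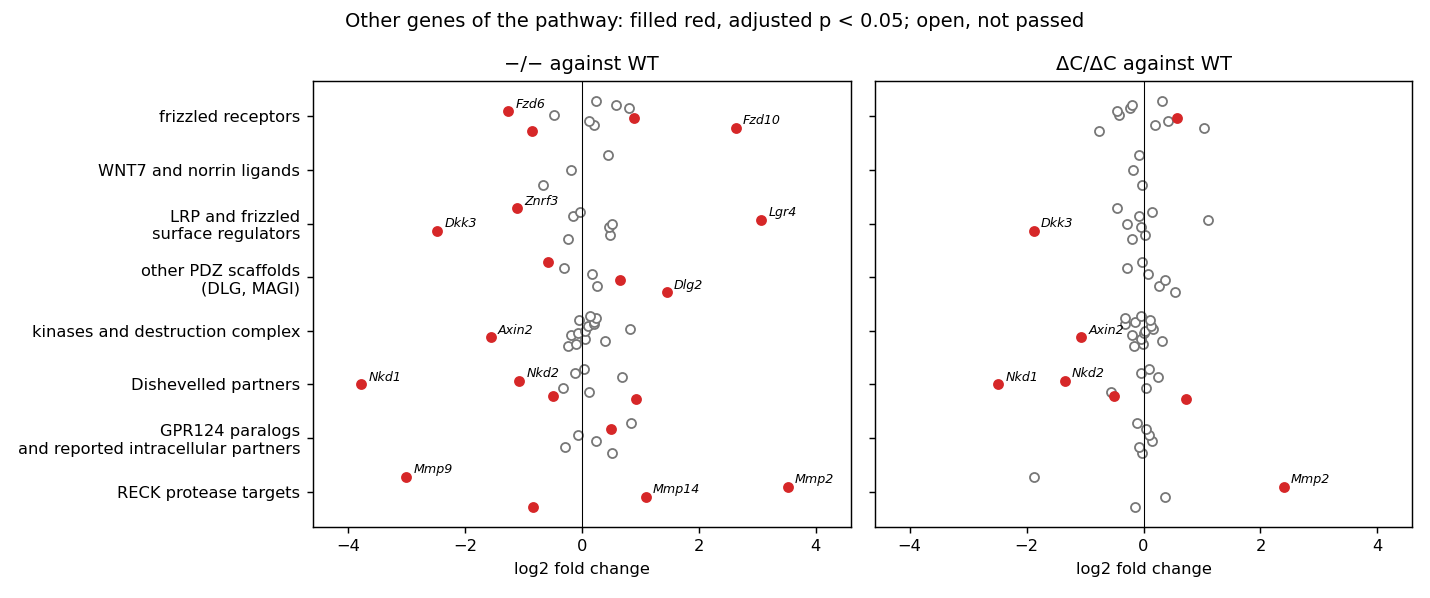
Log2 fold change (x axis) of the 62 tested pathway genes in 8 lists (y axis), in Gpr124-/- against WT on the left and Gpr124ΔC/ΔC against WT on the right. Filled red points passed an adjusted p of 0.05 (edgeR), 20 on the left and 8 on the right, and those beyond 1 in either direction carry their symbols.

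Genes whose pattern over the 12 libraries was most like that of *Adgra2* were found among 9989 genes with a mean above 8 CPM, by the mean absolute difference of log2 CPM centred on WT. The closest was *Grb14*, at 0.425, with mean TPM of 22.3 in WT, 25.6 in Gpr124ΔC/ΔC and 4.81 in Gpr124-/-. *Tmem51* (0.501), *Ptgfrn* (0.506), *Slc7a1* (0.548) and *Tbx3* (0.567) followed, and unlike *Adgra2* and *Grb14* these had lower means in Gpr124ΔC/ΔC than in WT, for example 254 against 473 TPM for *Slc7a1*. Most like *Dlg4* were *Zfp462* (0.155), *Crip1* (0.175), *Nucb2* (0.182), *Sox11* (0.185) and *Mlf1* (0.185). Mean TPM of each of these 5 lay between WT and Gpr124-/- in Gpr124ΔC/ΔC, as that of *Dlg4* did, for example 48.8, 76.0 and 122 for *Crip1*. They were chosen for likeness to *Dlg4* in these same libraries, so this pattern follows largely from the choice.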

How the data were processed

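RNA-seq counts and TPM were taken from 12 libraries of sorted forebrain endothelial cells (PicoPure RNA, SmartSeq V4 libraries, poly(A) selection, paired-end HiSeq sequencing, analysis by Genewiz). The authors deposited 1 table per library with the count of reads on each of 49315 Ensembl genes, not normalized, and the length of each gene. They also deposited 1 table of the whole series with the TPM of each gene in the 12 libraries. These TPM differed from values recomputed here from the deposited counts and lengths by at most 0.469%. The submitters' processing notes name bcl2fastq 2.17 and the build mm10. The aligner, the counting program and the strand setting are not given in the sources used here, and no library pair held identical counts. Symbols, exons and sequences came from GENCODE vM21, which held 49056 of the gene identifiers.

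Counts were fitted with edgeR 4.0.16 in R 4.3.3. Genes were kept by filterByExpr (count minimum 10, total minimum 15, large n 10, proportion 0.7), which left 16637, and libraries were scaled by TMM (factors 0.946 to 1.04). All 12 libraries entered 1 quasi-likelihood model with genotype as its term, and p-values were Benjamini-Hochberg adjusted over all tested genes. Changed means an adjusted p under 0.05, and the stricter threshold adds an absolute log2 fold change above 1. TPM, log2 ratios and Dishevelled shares were compared by exact two-sided permutation over 70 orders of 4 against 4 embryos. Intervals are 95% confidence intervals of the fitted log2 fold change, or of the fold, and rest on its standard error.

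Groups came from the genotype label. Replicates carry no number of their own in the labels, and each is a separate embryo. The 10 genes and the pathway and marker lists were chosen with earlier results of these data known. Of each pathway list, at most 3 genes with the smallest adjusted p in Gpr124-/- against WT and at most 2 more from Gpr124ΔC/ΔC against WT were named, and *Fzd1* and *Mmp9* were added later. The 5 genes most like *Adgra2* and *Dlg4* were found on log2 CPM (prior count 2). Alternatives were upper-quartile factors, no filter, a mean of at least 50 counts, the label letter as a term (in which Gpr124-/- against WT rests on KE4 against KE8 alone, each assumed to vary like the other embryos), DESeq2 1.42.0, fits of 2 genotypes, limma 3.58.1 on log2(TPM + 1) and log2(TPM + 0.1) for a mean TPM of at least 1 or without that filter, CPM per kilobase in place of TPM, and each library left out in turn. A further alternative, TPM with *Gm23935* taken out, was chosen after seeing the data. The fits were tested on simulated counts. Tables and plots used Python 3.11.15, pandas 2.3.3, numpy 2.4.6, scipy 1.17.1 and matplotlib 3.10.9.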

Additional observations from a re-analysis of the deposited data

Results flagged for a closer look

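In 2 of the 48 sets of 4 embryos examined (10 genes and 6 ratios or shares in 3 genotypes), 1 embryo lay so far from the rest that its gap to the nearest exceeded 0.829 of the whole range, the 95% critical value of Dixon's test for 4 samples. Chance alone singles out about 1 set in 20, so 2 of 48 is no more than that rate gives. The TPM of *Tspan12* in the Gpr124-/- embryo ME5 was 72.3, against 118 to 127 in the other 3. The TPM of *Dvl1* in the Gpr124ΔC/ΔC embryo JE3 was 14.6, against 8.01 to 9.06 in the other 3. JE3 is also the embryo with the highest share of *Gm23935* and the lowest *Reck*, and ME5 the one with the highest *Lrp5* and *Dvl3*.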

How the results depend on the processing

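Of 657 alternative values of the fold changes of the 10 genes, 619 kept their direction and their side of the threshold, 34 changed sign, all of them small differences that did not pass, 2 passed that had not before (*Reck* without JE3 and *Tspan12* without ME5, given above) and 2 no longer passed. The last 2 are *Dlg4* in Gpr124-/- against WT, with the label letter as a term (log2 fold change 1.02, adjusted p = 0.397, edgeR) and with limma on log2(TPM + 0.1) (1.04, adjusted p = 0.0505). Under both, and with a mean of at least 50 counts, which removes *Dlg4*, 1 of the 10 genes passed the adjusted p. With the fold threshold added, 1 passed in these settings, with every limma setting and without ME1, where *Dlg4* was removed or missed one of the thresholds, and the count ran from 1 to 2 with each embryo left out. *Adgra2* passed under all alternatives in Gpr124-/- against either other genotype.

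Signs changed for *Reck* in Gpr124ΔC/ΔC against WT with limma (0.02 in its 4 settings, one of them on TPM without *Gm23935*). Between the mutants they changed for *Lrp6* with upper-quartile factors (-0.01), with limma on log2(TPM + 1) (-0.00225, with or without the filter), on log2(TPM + 0.1) (-0.00327) and on TPM without *Gm23935* (-0.04), and for *Tspan12* in this last setting (-0.04). With the letter as a term *Dvl2* was at 0.14 against WT and 0.12 against Gpr124ΔC/ΔC. With each embryo left out in turn, the log2 fold change of Gpr124ΔC/ΔC against WT ran from -0.23 to 0.33 for *Adgra2*, -0.12 to 0.09 for *Reck*, -0.49 to 0.17 for *Lrp5*, -0.41 to 0.07 for *Dvl1*, -0.000917 to 0.18 for *Dvl2*, -0.53 to 0.18 for *Dvl3* and -0.14 to 0.14 for *Dlg1*, and that of *Lrp6* between the mutants from -0.1 to 0.19. In Gpr124-/- against WT it ran from 0.35 to 0.99 for *Lrp5* and from 0.27 to 0.8 for *Dvl3*. Between the mutants 1 to 2 of the 10 genes passed.

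Leaving out an embryo leaves 3 against 4, for which the exact permutation test cannot go below 0.0571. The log2 ratio of *Lrp5* to *Lrp6* then ran from 0.662 to 1.12 in Gpr124-/- and from -0.131 to 0.341 in Gpr124ΔC/ΔC against WT, that of *Dlg1* to *Dlg4* from -1.05 to -0.691 and from -0.631 to -0.313, and that of *Reck* to *Adgra2* in Gpr124ΔC/ΔC from -0.355 to 0.279. Dishevelled shares in Gpr124ΔC/ΔC against WT ran from -3.52 to 0.45 percentage points for *Dvl1*, -0.069 to 9.42 for *Dvl2* and -5.9 to 1.02 for *Dvl3*, and for *Dvl1* between the mutants from -1.38 to 2.59. The difference in the *Dvl2* share between the mutants ran from -16.2 to -6.69. CPM per kilobase differs from TPM by a factor common to all genes of an embryo, so it gives the same ratios by construction.

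Of the other pathway genes, 10 passed in Gpr124-/- against WT with the letter as a term, in place of 20, and 5 in Gpr124ΔC/ΔC against WT with limma without a filter, in place of 8. Between the mutants, where 5 passed, 1 did with the letter, 10 with DESeq2, 3 with fits of 2 genotypes, with limma on log2(TPM + 0.1) and with limma without *Gm23935*, and 3 to 8 with each embryo left out. The cause was not tested. No paired analysis was possible because the labels give the genotypes no shared replicate numbers. The label letter, which some embryos of different genotypes share, was fitted as a term instead, but for Gpr124-/- against WT that fit compares KE4 with KE8, 1 embryo against 1, since letter M holds the other 3 Gpr124-/- embryos and no WT embryo. The main limits are 4 embryos per genotype, letters that are only partly crossed with genotype, and the low count of *Dlg4*.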
